A study of Arabidopsis thaliana with 48 samples.

Results

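Roots of a single genotype under a single light level were compared with and without a microbial community. The 6 libraries are the roots of the MYC2–FLAG line under normal light (NC), chosen by the labels for tissue, genotype, light and microbes from 48 libraries in 16 conditions. MYC2–FLAG is the complemented line jin1-8 pMYC2::MYC2–FLAG, an Arabidopsis thaliana myc2 mutant that carries a FLAG-tagged MYC2 driven by the promoter of MYC2, so every plant compared here carries both the mutant allele and the transgene. Plants were 5 weeks old and grew on peat in the gnotobiotic FlowPot system. In 3 libraries the labels give a synthetic community of bacteria, fungi and oomycetes (+BFO), and in the other 3 they give no microorganisms (−BFO). The other conditions of the series differ in tissue (shoots), in light (low photosynthetically active radiation, LP) or in genotype (the myc2-3 mutant). The libraries of a condition are biological replicates from an RNA-seq experiment that was done once, so the p-values measure the spread within that experiment. These are bulk roots, in which fewer cells of a type and less RNA per cell cannot be told apart.

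The libraries labelled +BFO held 8128286, 9214260 and 9327523 gene counts, and those labelled −BFO held 8771372, 11045467 and 7302606. Log2 profiles of libraries of the same label correlated across genes at 0.980 to 0.988, and those of unlike labels at 0.939 to 0.948. No library stood apart from its group. Reads with more than 1 alignment made up 3.33% to 4.61% of a column in the libraries labelled +BFO and 1.86% to 2.88% in those labelled −BFO. Reads outside genes made up 2.14% to 2.57% in the libraries labelled +BFO and 1.75% to 1.88% in those labelled −BFO. Whether these shares bear on any gene was not tested. Of 15 markers of root cell types 0 were called by edgeR, DESeq2 or limma-voom, 5 had an unadjusted p under 0.05, and their summed level was 1264 to 1444 CPM (counts over the TMM-scaled library size) in the libraries labelled +BFO and 1049 to 1114 CPM in those labelled −BFO. Of 17 markers of green tissue, 2 were called lower (LHCB1.1 and LHCB2.1, light-harvesting proteins, and 4 without the first library labelled −BFO), with summed levels of 372.7 to 659.5 CPM in the libraries labelled +BFO and 330.1 to 498.7 CPM in those labelled −BFO. The 2 calls are 11.8% of these markers, near the 12.3% called over all genes tested. No marker of either list was at 0 in all 3 libraries of a group.

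The labels of this comparison and those of the other genotype oppose each other. Of the 2594 genes called in MYC2–FLAG roots, 1470 were also called in the myc2-3 roots under NC, which is 56.7% of the 2594 and 75.7% of the 1941 calls in myc2-3 (9.2% of genes tested). Of these, 1467 had opposite signs and 3 the same sign. Fold changes of the genotypes correlated at −0.75 across all genes tested, a description over genes that are not independent replicates. Between genotypes, the MYC2–FLAG libraries labelled +BFO differed at 296 genes (1.4%) from the myc2-3 libraries labelled −BFO, but at 2524 genes (12%) from those labelled +BFO. The MYC2–FLAG libraries labelled −BFO differed at 129 genes (0.611%) from the myc2-3 libraries labelled +BFO, and at 2379 genes (11.3%) from those labelled −BFO. The labels cannot be told apart from their exchange in 1 of the genotypes, and which genotype that would be cannot be told from these files. The difference of fold changes between the genotypes was called for 5327 genes (25.2%). Genotype also goes with sequencing project. The study's methods report many latent virus reads in part of the myc2-3 samples and judge their effect on the plant transcriptome not significant. Which samples these were is not stated. Every direction given here is by label, and an exchange of the labels in MYC2–FLAG would turn every sign.

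**Figure D1:**
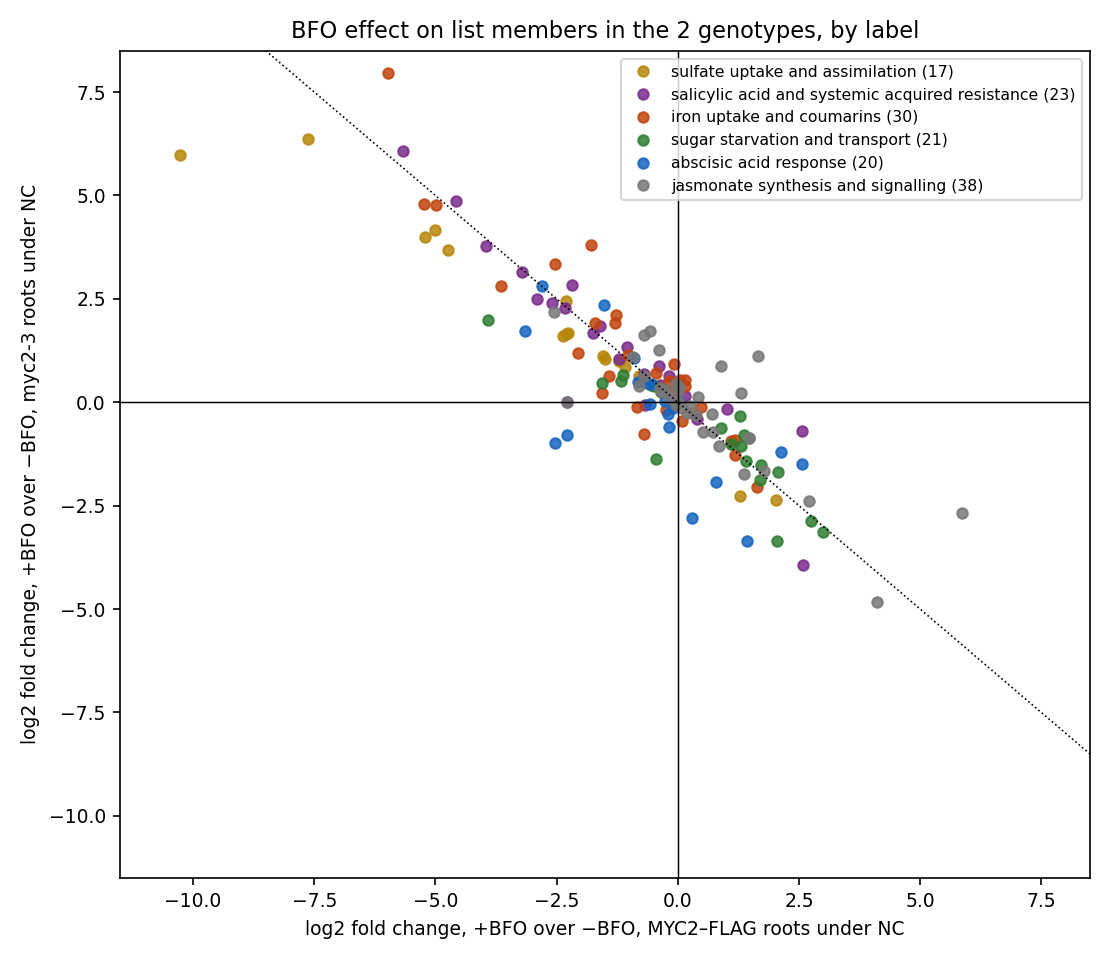
Log2 fold change (+BFO over −BFO, by label) of the members of 6 gene lists in MYC2–FLAG roots under NC (x axis) and in myc2-3 roots under NC (y axis), 1 point per gene, with the dotted line marking equal size and opposite sign. Most points lie in the quadrants where the genotypes have opposite signs. Points of genes without counts in a group are fitted values that depend on the prior count.

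MYC2 is a basic helix-loop-helix transcription factor of jasmonate signalling that binds G-box sequences and is held back by the JAZ repressors until jasmonate leads to their degradation. Roots meet soil microorganisms with receptor-driven immunity, with jasmonate, ethylene and salicylic acid signalling and with the export of indole compounds and coumarins. Microbial partners also change how much sulfur, iron, nitrogen, phosphate and sugar a root takes up or has at hand, and each of these has well-known marker genes. MYC2 mRNA itself was 183, 190.3 and 119 CPM in the libraries labelled +BFO, against 191, 205 and 110.4 CPM in those labelled −BFO. The groups overlapped (log2 fold change −0.04, SE 0.32, adjusted p = 0.94), where SE, and ± after a log2 fold change, is the standard error of the fit. Counts per gene do not separate the transcript of the transgene from that of the resident gene.

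Of 21098 genes tested, 1058 were called higher and 1536 lower in the libraries labelled +BFO, by the quasi-likelihood test of edgeR with p-values adjusted after Benjamini and Hochberg, where a call needs a log2 change of 1 or more in either direction and an adjusted p under 0.05. This is 12.3% of the genes tested, 5.01% higher and 7.28% lower. In 1003 of the higher and 1476 of the lower calls the 3 libraries of each label did not overlap, beside 25.1% and 22.6% of all genes tested whose libraries were all higher or all lower. A change of more than 4-fold was found for 275 higher and 539 lower genes, and of more than 16-fold for 41 and 93. The median log2 fold change over all genes tested was 0.02. For each gene given with its values in the 6 NC libraries, the libraries of unlike label did not overlap, apart from MYC2, PR1 and AT2G44220. The largest rises and falls and the list members picked by rule were required not to overlap. For them it holds by selection, and where it is stated below it adds no support. Of 21 gene lists the one with the largest share of called members was sulfate uptake and assimilation, of which 15 of 17 members were called, followed by sugar starvation and transport with 15 of 21 and salicylic acid with 15 of 23.

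**Figure D2:**
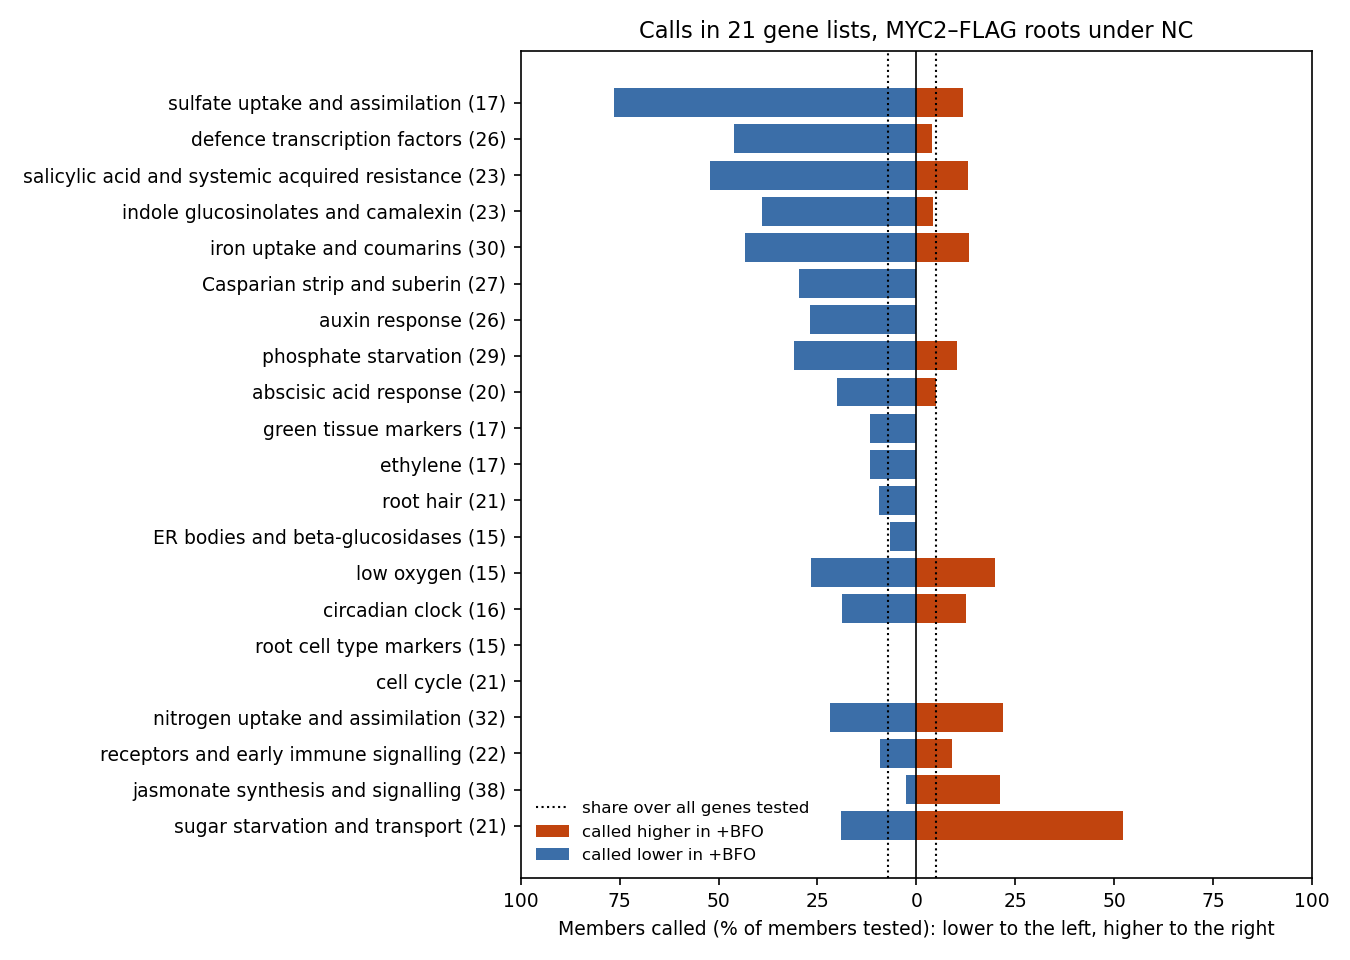
Share of the tested members of 21 gene lists called lower (bars to the left) and higher (bars to the right) in MYC2–FLAG root libraries labelled +BFO than in those labelled −BFO, in percent, with the number tested in parentheses and dotted lines at the share over all genes tested (5.01% higher, 7.28% lower). Sulfate, salicylic acid and defence transcription factor genes lie mostly to the left, and sugar starvation genes mostly to the right.

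Several genes that plants switch on when sulfur is short, LSU1 and BGLU28 among them, were much lower in the libraries labelled +BFO. Not every gene of sulfate uptake moved that way, and the transporter SULTR1;1 was called higher. Of 17 genes of sulfate uptake and assimilation, 13 were called lower and 2 higher, with a median log2 fold change of −2.26. LSU1, of the RESPONSE TO LOW SULFUR family, was 0.308, 0.354 and 0.263 CPM in the libraries labelled +BFO, against 49.9, 55.2 and 87.1 CPM in those labelled −BFO. The groups lay far apart (log2 fold change −7.63, SE 0.55, adjusted p = 3.48e-14). LSU2 was 0.718, 0.708 and 1.32 CPM in the libraries labelled +BFO, against 14.6, 22.7 and 38.9 CPM in those labelled −BFO (log2 fold change −4.75, SE 0.37, adjusted p = 3.64e-13), and LSU3 fell by a log2 of 5.01 (5.81 without the second library labelled +BFO). LSU1 and LSU3 are close copies and may be undercounted, since reads that align to both were left out. ATSDI1 (SDI1), which holds back glucosinolate synthesis when sulfur is short, was 1.33, 0.797 and 0.965 CPM in the libraries labelled +BFO, against 22.6, 33.7 and 59.4 CPM in those labelled −BFO. Its libraries did not overlap (log2 fold change −5.21, SE 0.51, adjusted p = 9.66e-11). BGLU28, a beta-glucosidase that breaks down glucosinolates under low sulfur, had no count in any library labelled +BFO, against 12.8, 19.1 and 24.3 CPM in those labelled −BFO, and was at least 200.4-fold lower, taking 3 counts over the group as the limit of a count of 0.

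The enzymes and transporters of the pathway had smaller fold changes than these markers. The 3 APS reductases, which make sulfite from activated sulfate, were all called lower, at log2 fold changes of −2.305 for APR1, −2.37 for APR2 and −1.21 for APR3. APR3 was 149, 145 and 155 CPM in the libraries labelled +BFO, against 310.2, 334 and 390.5 CPM in those labelled −BFO (log2 fold change −1.21, SE 0.24, adjusted p = 8.27e-05), with no overlap. The vacuolar exporter SULTR4;2 (−1.505), the root uptake transporter SULTR1;2 (−1.09) and the vascular transporter SULTR2;1 (−2.303) were called lower. Other transporters of the same family were called higher, SULTR1;1 at 1.29 and SULTR2;2 at 2.02. SULTR2;2, a transporter of the vasculature, was 9.13, 11.6 and 8.95 CPM in the libraries labelled +BFO, against 2.68, 2.01 and 2.7 CPM in those labelled −BFO (log2 fold change 2.02, SE 0.23, adjusted p = 5.07e-09). ATP sulfurylase APS1 (−0.796 ± 0.17) and sulfite reductase SIR (0.26 ± 0.11) were not called.

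Genes of salicylic acid signalling were mostly lower in the libraries labelled +BFO. Of 23 members 12 were called lower and 3 higher, and the median log2 fold change was −1.22. NIMIN1 and NIMIN2, which bind the salicylic acid receptor NPR1 and limit its output, were among the most lowered. NIMIN1 was 0.923, 0.177 and 0.0877 CPM in the libraries labelled +BFO, against 14.7, 25.03 and 19.2 CPM in those labelled −BFO (log2 fold change −5.68, SE 0.47, adjusted p = 4.82e-13, and −7.07 without the first library labelled +BFO). NIMIN2 was 1.03, 1.77 and 0.789 CPM in the libraries labelled +BFO, against 23.9, 32.9 and 30.5 CPM in those labelled −BFO (log2 fold change −4.58, SE 0.36, adjusted p = 4.79e-13). For both genes every library labelled +BFO lay below every library labelled −BFO.

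Enzymes that remove salicylic acid moved with its targets. DLO1 and DMR6 are hydroxylases that turn salicylic acid into dihydroxybenzoic acids. DLO1 was 16.2, 9.83 and 12.98 CPM in the libraries labelled +BFO, against 202, 206 and 199 CPM in those labelled −BFO (log2 fold change −3.96, SE 0.36, adjusted p = 2.14e-11), and DMR6 had a log2 fold change of −2.32 ± 0.31. The glucosyltransferase UGT76B1, which inactivates salicylic acid and N-hydroxypipecolic acid, stood at −2.601 ± 0.23. ALD1, the aminotransferase that opens pipecolic acid synthesis, was 2.26, 1.59 and 3.6 CPM in the libraries labelled +BFO, against 14.7, 31.5 and 23.002 CPM in those labelled −BFO, without overlap (log2 fold change −3.21, SE 0.39, adjusted p = 2.32e-08). FMO1, which hydroxylates pipecolic acid, was not called (−0.396 ± 0.28). The salicylic acid receptors NPR3 (−2.19) and NPR4 (−1.04), the lipase-like regulator PAD4 (−1.597), the dioxygenase DOX1 (−2.898) and EPS1 (−1.22), which acts late in salicylic acid synthesis, were called lower as well. The calls in the other direction were ICS1 (1.02 ± 0.23), the isochorismate synthase at the head of salicylic acid synthesis, AZI1 (2.56 ± 0.38), a lipid transfer protein-like gene of systemic priming, and BGL2 (2.59 ± 1.00, adjusted p = 0.039), the glucanase PR2. BGL2 lost its call when any library was left out (adjusted p = 0.050 to 0.150), and without the second library labelled +BFO or the third labelled −BFO the higher calls of the list came to 1. PR1, the classic output gene, was 0, 0 and 0 CPM in the libraries labelled +BFO, against 0.185, 0 and 0 CPM in those labelled −BFO, near 0 in all libraries, and was not called.

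Transcription factors of defence followed the same pattern, with 12 of 26 called lower and 1 higher. Their median log2 fold change was −1.03. WRKY70, which acts downstream of salicylic acid, was 25.6, 27.4 and 23.2 CPM in the libraries labelled +BFO, against 257, 213 and 167 CPM in those labelled −BFO (log2 fold change −3.06, SE 0.34, adjusted p = 2.19e-09). ANAC042 (JUNGBRUNNEN1), a NAC factor linked to camalexin, was 1.54, 1.15 and 0.789 CPM in the libraries labelled +BFO, against 12.6, 11.5 and 11.7 CPM in those labelled −BFO (log2 fold change −3.37, SE 0.31, adjusted p = 1.78e-11). WRKY38 (−3.04), WRKY18 (−3.02) and SARD1 (−2.74), the factor that drives ICS1 together with CBP60G (−1.11), were lower too. WRKY22, which acts downstream of MAP kinases, was 17.6, 19.5 and 20.96 CPM in the libraries labelled +BFO, against 6.46, 5.61 and 4.0 CPM in those labelled −BFO, the call in the other direction (log2 fold change 1.84, SE 0.37, adjusted p = 0.000117). Without the third library labelled −BFO, CBP60G did not reach the fold required, at −0.97. Over the whole WRKY family by product name, 21 of 60 genes tested were called lower and 1 higher.

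**Figure D3:**
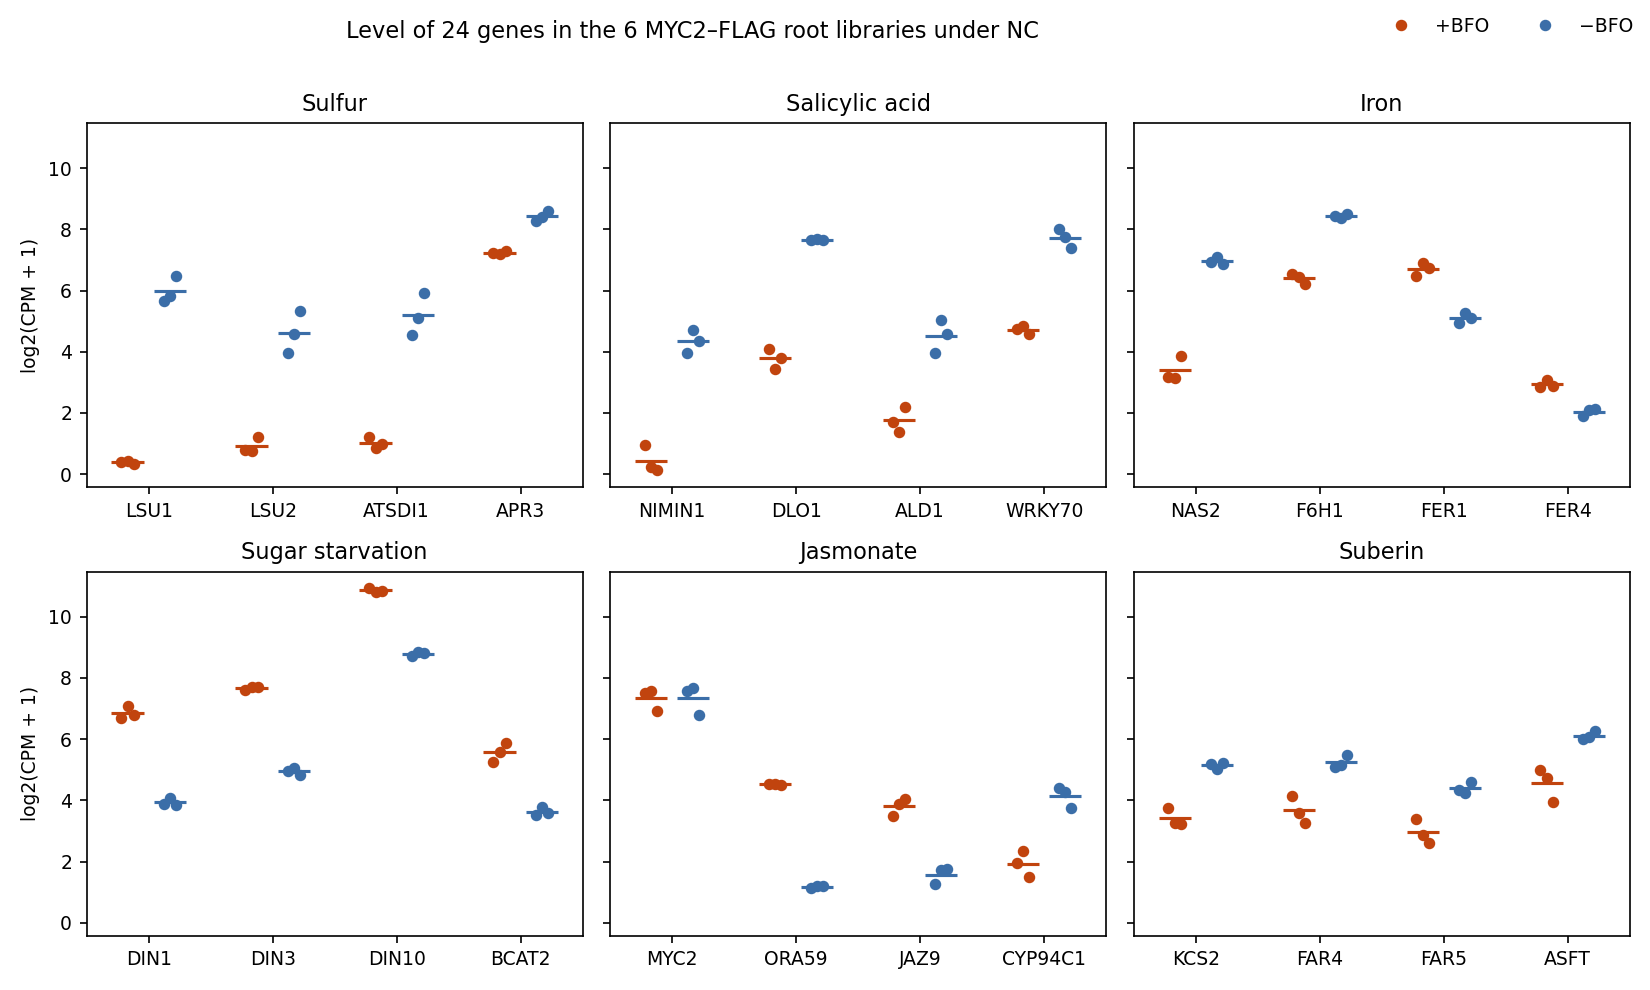
Level of 24 genes on a log2(CPM + 1) scale in each of the 6 MYC2–FLAG root libraries under NC, with points for libraries labelled +BFO left of those labelled −BFO and lines at their means. LSU1, NIMIN1, NAS2 and KCS2 are lower and DIN1, ORA59 and FER1 higher in every library labelled +BFO, while the MYC2 points of the labels overlap.

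Receptors and early immune signalling gave 2 higher and 2 lower calls of 22 members (4 lower in the fits of fewer libraries), with a median log2 fold change of −0.22. The share called was 18.2%, beside 12.3% over all genes tested. FLS2, the receptor of bacterial flagellin, was 5.74, 4.96 and 6.14 CPM in the libraries labelled +BFO, against 1.01, 2.3 and 2.48 CPM in those labelled −BFO (log2 fold change 1.53, SE 0.30, adjusted p = 7.71e-05). CML38, a calmodulin-like protein, was 27.6, 23.6 and 18.1 CPM in the libraries labelled +BFO, against 1.48, 1.44 and 1.3 CPM in those labelled −BFO (log2 fold change 4.02, SE 0.55, adjusted p = 1.84e-07). Both were higher in every library labelled +BFO. The kinase MPK11 (−2.64 ± 0.46) and the chitin receptor kinase LYK4 (−1.23 ± 0.19) were lower, while EFR, CERK1, BAK1, BIK1 and RBOHD were not called. Of 24 immune genes named for wild-type roots and shoots, a list drawn up on other libraries, 3 were called higher (CML38, BGL2 and AZI1), 7 lower (ANAC042, CBP60G, CYP81F2, PAD4, SARD1, ALD1 and DOX1) and 14 were not called, with a median log2 fold change of −0.37. The defensin PDF1.2B had no counts in these 6 libraries.

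A part of the jasmonate genes was higher in the libraries labelled +BFO. Of 38 members tested, 8 were called higher and 1 lower (2 lower without the first library of either label), but the median log2 fold change was 0.06. ORA59, the ERF that joins jasmonate and ethylene signals, was 22.3, 21.96 and 21.8 CPM in the libraries labelled +BFO, against 1.2, 1.29 and 1.3 CPM in those labelled −BFO. The groups lay far apart (log2 fold change 4.11, SE 0.38, adjusted p = 3.21e-11). JAZ9, a repressor of MYC2, was 10.2, 13.9 and 15.6 CPM in the libraries labelled +BFO, against 1.38, 2.3 and 2.38 CPM in those labelled −BFO (log2 fold change 2.703, SE 0.46, adjusted p = 8.67e-06). JAZ8 was 1.44, 0.62 and 0.614 CPM in the libraries labelled +BFO, against no count in those labelled −BFO, and was at least 9.78-fold higher. JAZ4, JAZ5, JAZ7, ERF1 and the jasmonoyl-isoleucine hydroxylase CYP94B3 were higher at log2 fold changes of 1.302 to 1.78. CYP94C1, which oxidizes the same hormone further, was 2.87, 4.07 and 1.84 CPM in the libraries labelled +BFO, against 20.4, 18.3 and 12.5 CPM in those labelled −BFO and was the call in the other direction (log2 fold change −2.55, SE 0.37, adjusted p = 8.37e-07).

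Ethylene genes were mostly not called. Of 17 members 2 were lower, ACS7 (−2.26 ± 0.43), an ACC synthase, and ACO4 (−2.16 ± 0.17), an ACC oxidase. This share of 11.8% is near the 12.3% over all genes tested. ACS7 was 1.44, 1.42 and 1.4 CPM in the libraries labelled +BFO, against 10.98, 5.32 and 4.21 CPM in those labelled −BFO.

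Genes of indole defence compounds were more often lower than higher in the libraries labelled +BFO. Of 23 genes of indole glucosinolates and camalexin, 9 were called lower and 1 higher, with a median log2 fold change of −0.52. CYP71A12 and CYP71A13 make indole-3-acetonitrile and are near-identical neighbours. Both may be undercounted, since reads that align to both were left out. CYP71A13 was 0.103, 0.0885 and 0.175 CPM in the libraries labelled +BFO, against 2.86, 1.94 and 3.56 CPM in those labelled −BFO (log2 fold change −4.299, SE 0.68, adjusted p = 1.57e-06), and CYP71A12 stood at −3.82 ± 0.37. CYP82C2, which hydroxylates indole carbonyl nitrile, was 3.59, 4.07 and 3.6 CPM in the libraries labelled +BFO, against 37.4, 42.01 and 64.3 CPM in those labelled −BFO. It did not overlap between labels (log2 fold change −3.66, SE 0.50, adjusted p = 1.02e-07). CYP81F1 (−2.75) and CYP81F2 (−1.87), which hydroxylate indole glucosinolates, the methyltransferase IGMT2 (−1.73) and CYP79B2 (−1.42), which makes indole-3-acetaldoxime from tryptophan, were called lower. IGMT1, the neighbour of IGMT2, was called higher (1.31 ± 0.26). Of 15 genes of ER bodies and beta-glucosidases, which hold and hydrolyse such compounds, 1 was called, GLL23, at −1.14 ± 0.23. That is 6.67% of the list, below the 12.3% over all genes tested.

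Enzymes that conjugate foreign and toxic compounds were called lower more often than higher. Among glutathione S-transferases 17 of 43 were called lower and 1 higher, with a median log2 fold change of −0.90. Among UDP-glycosyltransferases by product name 26 of 112 were called lower and 6 higher, with a median of −0.22. The product name also takes in the starch synthase GBSS1, which is among these lower calls. Of 161 cytochrome P450 genes 30 were called lower and 20 higher, and of 71 lipid transfer protein genes 16 lower and 11 higher. Neither family belongs to the conjugating enzymes. Larger shares of them were called (31.1% and 38%) than over all genes tested (12.3%). Their lean to lower calls was like that over all genes tested, 1536 lower and 1058 higher. Ribosomal protein genes were nearly unmoved by this rule, with 1 lower and 1 higher of 96.

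More iron genes were called lower than higher. Of 30 members 13 were called lower and 4 higher in the libraries labelled +BFO, with a median log2 fold change of −0.73. NAS2, a nicotianamine synthase, was 8.0, 7.79 and 13.7 CPM in the libraries labelled +BFO, against 122, 135 and 116 CPM in those labelled −BFO (log2 fold change −3.65, SE 0.23, adjusted p = 6.26e-13). F6H1, the hydroxylase that makes scopoletin and with it the iron-mobilizing coumarins, was 91.9, 86.5 and 72.8 CPM in the libraries labelled +BFO, against 348, 328 and 365 CPM in those labelled −BFO (log2 fold change −2.05, SE 0.18, adjusted p = 1.6e-12). bHLH39, a partner of the regulator FIT, had a log2 fold change of −2.53 ± 0.33, and the close relatives bHLH38 (−1.71) and bHLH101 (−1.300) were lower as well. Among loci annotated as uncharacterized proteins, AT1G47395 had 1 count in all in the libraries labelled +BFO, against 97 in those labelled −BFO, and AT1G47400 had 2 against 82. AT2G30766 had no count in the libraries labelled +BFO and was at least 6.04-fold lower, but lost its call when any library other than the first of those labelled −BFO was left out (adjusted p = 0.060 to 0.126). The phloem transporter OPT3 (−1.78), CYP82C4 (−1.57), which makes sideretin, and the coumarin exporter ABCG37 (−1.03) were lower too.

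The ferritins, which store iron in plastids, went the other way. FER1 was 88.3, 118 and 106 CPM in the libraries labelled +BFO, against 29.3, 37.8 and 33.2 CPM in those labelled −BFO (log2 fold change 1.64, SE 0.22, adjusted p = 2.13e-07). FER4 was 6.26, 7.44 and 6.32 CPM in the libraries labelled +BFO, against 2.77, 3.24 and 3.35 CPM in those labelled −BFO (log2 fold change 1.096, SE 0.22, adjusted p = 0.000144), and FER3 stood at 1.18 ± 0.19. FRO2, the ferric reductase of the root surface, was picked out after its values were seen because it was called higher here (1.18 ± 0.24) and lower under LP (−1.19). It was 207, 259 and 379.9 CPM in the libraries labelled +BFO, against 94.1, 126 and 152 CPM in those labelled −BFO.

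Genes that respond to lack of sugar were higher in the libraries labelled +BFO. Of 21 members of the sugar list 11 were called higher and 4 lower, and the median log2 fold change was 1.09. DIN1 (SEN1), a marker of darkness and sugar shortage, was 102, 135 and 109 CPM in the libraries labelled +BFO, against 13.7, 16.04 and 13.3 CPM in those labelled −BFO. The groups lay far apart (log2 fold change 3.002, SE 0.24, adjusted p = 3.65e-13). DIN3, a subunit of the branched-chain keto acid dehydrogenase, was 195, 209 and 207 CPM in the libraries labelled +BFO, against 30.3, 32.2 and 27.6 CPM in those labelled −BFO (log2 fold change 2.76, SE 0.18, adjusted p = 2.93e-15). For both genes every library labelled +BFO lay above every library labelled −BFO. DIN10, a raffinose synthase-like gene, was 1943, 1784 and 1841 CPM in the libraries labelled +BFO, against 423, 462 and 445 CPM in those labelled −BFO (log2 fold change 2.07, SE 0.22, adjusted p = 4.98e-10). BCAT2, a branched-chain aminotransferase, was 37.3, 47.3 and 57.8 CPM in the libraries labelled +BFO, against 10.5, 12.9 and 10.9 CPM in those labelled −BFO (log2 fold change 2.05, SE 0.28, adjusted p = 1.87e-07). The monosaccharide transporter STP1 stood at 1.72 ± 0.16, with SWEET12, SUC2, DIN4, EXO, TPS8 and TPS11 also called higher.

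Not every gene of this kind followed. DIN2, a beta-glucosidase, was 20.6, 19.04 and 20.3 CPM in the libraries labelled +BFO, against 212, 237 and 454 CPM in those labelled −BFO (log2 fold change −3.91, SE 0.75, adjusted p = 6.54e-05). The hexose importer STP13 (−1.55), the starch synthase GBSS1 (−1.18) and DIN9 (−1.13), a phosphomannose isomerase, were lower as well.

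Nitrogen genes moved both ways, 7 higher and 7 lower of 32 members tested, with a median log2 fold change of −0.12. NIA1, a nitrate reductase, was 576, 316 and 315 CPM in the libraries labelled +BFO, against 78.6, 70.6 and 52.6 CPM in those labelled −BFO (log2 fold change 2.58, SE 0.30, adjusted p = 6.71e-09). ASN1, the asparagine synthetase induced by darkness and known also as DIN6, was 224, 285 and 232 CPM in the libraries labelled +BFO, against 46.8, 57.1 and 54.3 CPM in those labelled −BFO (log2 fold change 2.23, SE 0.22, adjusted p = 2.32e-10). GDH1 (1.29) and GDH2 (1.38), glutamate dehydrogenases, and the nitrate-responsive repressors LBD38 (1.02) and LBD39 (1.004) were higher. On the other side, the ammonium transporter AMT2;1 was 26.7, 31.9 and 26.8 CPM in the libraries labelled +BFO, against 73.8, 80.1 and 84.9 CPM in those labelled −BFO (log2 fold change −1.48, SE 0.16, adjusted p = 9.53e-10). NRT2.2, a high-affinity nitrate transporter, had no count in the libraries labelled +BFO and was at least 18.8-fold lower, while its near-identical neighbour NRT2.1 stood at −1.16 ± 0.30. Reads that align to both neighbours were left out, so both may be undercounted. The cytosolic glutamine synthetases GLN1;1, GLN1;2 and GLN1;4 were called lower at log2 fold changes of −1.43, −1.198 and −1.28.

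Of 29 phosphate starvation genes tested, 9 were called lower and 3 higher (1 higher by DESeq2), with a median log2 fold change of −0.50. RNS1, a ribonuclease that recovers phosphate from RNA, had 2 counts in all in the libraries labelled +BFO, against 35 in those labelled −BFO. PAP17, a purple acid phosphatase, was 4.2, 9.12 and 5.17 CPM in the libraries labelled +BFO, against 37.7, 40.3 and 45.4 CPM in those labelled −BFO (log2 fold change −2.72, SE 0.38, adjusted p = 3.11e-07). PS2, a phosphatase, stood at −1.65 ± 0.67 and SPX1, the phosphate sensor, at −1.45 ± 0.28. The phosphate transporter PHT1;2 was 7.69, 10.9 and 11.1 CPM in the libraries labelled +BFO, against 0.554, 2.01 and 2.7 CPM in those labelled −BFO, without overlap and in the other direction (log2 fold change 2.51, SE 0.37, adjusted p = 9.79e-06). PHT1;2 and its copy PHT1;1 (0.85 ± 0.22, not called) may be undercounted, since reads that align to both were left out. AT4, a noncoding RNA that binds miR399, was higher as well (1.15 ± 0.35).

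Abscisic acid genes had 4 of 20 members called lower and 1 higher, with a median log2 fold change of −0.41. The lower calls came to 2 without the third library labelled +BFO. The phosphatases HAI1 and HAI2 are strongly induced by this hormone. HAI2 was 0.205, 0 and 0.439 CPM in the libraries labelled +BFO, against 1.29, 3.09 and 1.4 CPM in those labelled −BFO (log2 fold change −3.14, SE 0.56, adjusted p = 1.36e-05), and HAI1 stood at −2.81 ± 0.33. HAI2 stood at −4.21 without the third library labelled +BFO and at −2.56 without the second labelled −BFO. NCED3, the rate-limiting enzyme of abscisic acid synthesis, stood at −1.52 ± 0.49, while CYP707A3, which breaks the hormone down, was 67.4, 58.97 and 59.8 CPM in the libraries labelled +BFO, against 15.9, 14.7 and 11.9 CPM in those labelled −BFO (log2 fold change 2.12, SE 0.47, adjusted p = 0.00047).

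Genes of the suberin barrier were lower in part, while the Casparian strip genes named here were not called. Of 27 members of both, 8 were called and all 8 were lower, with a median log2 fold change of −0.48. Leaving out library 2 or library 3 of either label gave 1 gene called higher each time. KCS2, an elongase of long-chain fatty acids, was 12.5, 8.5 and 8.33 CPM in the libraries labelled +BFO, against 35.5, 31.6 and 36.4 CPM in those labelled −BFO (log2 fold change −1.82, SE 0.19, adjusted p = 3.29e-11). ASFT, which adds ferulate to suberin, was 31.2, 25.5 and 14.6 CPM in the libraries labelled +BFO, against 62.9, 65.5 and 76.7 CPM in those labelled −BFO (log2 fold change −1.53, SE 0.21, adjusted p = 2.59e-07). FAR1, FAR4 and FAR5, reductases that make the fatty alcohols of suberin, were called lower at −1.49, −1.62 and −1.54, where FAR4 and FAR5 are neighbouring copies. GPAT7, CYP86B1 and the suberin exporter ABCG20 (−1.16) were lower, whereas GPAT5 (−0.81 ± 0.19) and CYP86A1 (−0.63 ± 0.16), other enzymes of the pathway, did not reach the fold required. CASP1 (−0.09 ± 0.19), CASP2 (0.14 ± 0.25) and PER64 (0.01 ± 0.22), which build the Casparian strip, were not called.

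Growth programmes were counted in the same way. Of 21 cell cycle genes 0 were called by edgeR, DESeq2 or limma-voom, and 3 had an unadjusted p under 0.05. Of 21 root hair genes 2 were called lower (1 in the fits of the 12 or the 6 libraries), the bHLH factors RSL1 (−3.25 ± 0.74, and −3.87 without the third library labelled +BFO) and RSL4 (−1.57 ± 0.39). The share called was 9.52%, below the 12.3% over all genes tested. Of 26 auxin response genes 7 were called and all 7 were lower, with a median log2 fold change of −0.28. GH3.3, which conjugates auxin to amino acids, was 9.33, 6.11 and 14.6 CPM in the libraries labelled +BFO, against 232, 197 and 147 CPM in those labelled −BFO (log2 fold change −4.25, SE 0.39, adjusted p = 1.78e-11). LBD18 (−1.57) and LBD29 (−1.71), factors of lateral root formation, and YUC9 (−2.002), an auxin synthesis enzyme, were lower too.

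The clock and low oxygen lists were mixed. Of 16 clock genes 2 were called higher, FKF1 (1.61 ± 0.17) and ELF4 (1.03 ± 0.25), which peak in the afternoon or evening, and 3 lower, LHY (−1.86 ± 0.34), CCA1 (−1.35 ± 0.31) and LNK1 (−1.58 ± 0.12), which peak in the morning. LHY was 1.03, 1.68 and 2.54 CPM in the libraries labelled +BFO, against 6.09, 5.03 and 8.75 CPM in those labelled −BFO. Without the first library labelled +BFO, CCA1 fell short of the fold required, at −0.93, and without that library or the second labelled −BFO 1 clock gene was called higher. Of 15 low oxygen genes tested 4 were called lower and 3 higher. PDC1, pyruvate decarboxylase, was 3.38, 4.52 and 5.17 CPM in the libraries labelled +BFO, against 35.98, 24.3 and 20.4 CPM in those labelled −BFO (log2 fold change −2.61, SE 0.32, adjusted p = 6.87e-09), and alcohol dehydrogenase ADH1 stood at −1.799 ± 0.35. HRE1, an ERF of the low oxygen response, was 124, 129 and 137 CPM in the libraries labelled +BFO, against 36.6, 21.8 and 24.7 CPM in those labelled −BFO (log2 fold change 2.23, SE 0.18, adjusted p = 1.19e-12).

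The largest rises among genes with enough counts were led by RRTF1, an ERF factor responsive to redox state and wounding. It was 58.7, 33.2 and 15.6 CPM in the libraries labelled +BFO, against 0.185, 1.08 and 0.108 CPM in those labelled −BFO (log2 fold change 6.05, SE 0.92, adjusted p = 9.95e-07, and 7.76 without the second library labelled −BFO). DIN11, a 2-oxoglutarate-dependent oxygenase of the dark-inducible group, was 12.2, 16.8 and 27.4 CPM in the libraries labelled +BFO, against 0.0923, 0.144 and 0.864 CPM in those labelled −BFO (log2 fold change 5.79, SE 0.68, adjusted p = 2.19e-09, and 7.11 without the third library labelled −BFO). The methyltransferase family gene AT1G15125 was 96.8, 109 and 175 CPM in the libraries labelled +BFO, against 10.5, 6.11 and 3.89 CPM in those labelled −BFO (log2 fold change 4.202, SE 0.33, adjusted p = 4.23e-13). Also among the 10 were the cupin AT5G38930 (5.13), the ankyrin-repeat gene AT5G04730 (4.95), the extensin-like gene AT4G08380 (4.77), the MATE transporter AT5G19700 (4.61), the phosphorylase family gene AT4G24350 (4.29), ORA59 and the receptor kinase-related gene AT1G63570 (4.099). Without the third library labelled −BFO, AT5G04730 stood at 5.59 and AT1G63570 at 4.69.

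The largest falls were larger than the rises. PCR1, named for cadmium resistance, had no count in the libraries labelled +BFO, against 17.3, 54.8 and 63.1 CPM in those labelled −BFO, and was at least 488-fold lower. AT2G30670, a Rossmann-fold gene, was likewise at 0 and at least 285-fold lower. ARD3, an acireductone dioxygenase of methionine salvage, was 0.513, 0.266 and 0.175 CPM in the libraries labelled +BFO, against 154, 167 and 119 CPM in those labelled −BFO (log2 fold change −8.82, SE 0.51, adjusted p = 2.38e-19). AT3G28510, a P-loop ATPase family gene, was the most abundant of these, 30.4, 21.1 and 25.8 CPM in the libraries labelled +BFO, against 2173, 1894 and 1871 CPM in those labelled −BFO (log2 fold change −6.27, SE 0.53, adjusted p = 2.53e-12). The cupin AT5G38910 stood at −8.26 ± 0.38, the crotonase family gene AT2G30660, close to AT2G30670 by number, at −7.55 ± 0.40, the mitochondrial phosphate carrier PHT3;2 at −6.55 ± 0.47 and the carboxypeptidase-like scpl14 at −5.71 ± 0.35. AT5G38910 stood at −9.01 without the first library labelled +BFO, and scpl14 at −6.31 without the third. BGLU28 and LSU1 complete the 10. The cupin genes AT5G38910 and AT5G38930 thus stood at opposite ends, 1 among the largest falls and 1 among the largest rises.

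Promoter sequences from RefSeq (assembly TAIR10.1) were searched for motifs in the 250 bases before the start of 20784 of the genes tested. The W-box, TTGACC or TTGACT on either strand, is the site that WRKY factors bind. The G-box CACGTG is bound by MYC2 and other bHLH and bZIP factors, and it reads the same on both strands. The P1BS sequence GNATATNC is bound by the phosphate starvation regulator PHR1. A match shows the letters only, not a bound site. A W-box was present before 36.5% of the genes called lower, 28.8% of those called higher and 28.8% of all genes searched. Within lists it was present before 5 of 23 salicylic acid genes, 10 of 26 defence factors and 15 of 22 genes of receptors and early immune signalling. It was not particular to immune lists, with 15 of 27 Casparian strip and suberin genes. A G-box was present before 8.28% of the genes called higher, 6.03% of those called lower and 7.19% of all. Within lists it was present before 7 of 38 jasmonate genes, 6 of 30 iron genes, 5 of 16 clock genes and 4 of 20 abscisic acid genes. P1BS was present before 9 of 29 phosphate starvation genes, beside 5.44% of all, and among these 9 were PHT1;2, AT4 and PAP24, called higher, and NPC4, PLDP2 and PS2, called lower. The GCC box AGCCGCC, bound by ERF factors, was present before 1.27% of the genes called higher, 0.59% of those called lower and 0.611% of all.

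The sequences of 7 genes show where these motifs lie, each written 5′ to 3′ along the gene's strand with its last base next to the transcription start and the motif in capitals on whichever strand it was found. No rule was set for picking the 7 genes, and only the motif named for a gene is in capitals. NIMIN2, at chr3:9471040-9471289 on the minus strand, ANAC042, at chr2:17882637-17882886 on the minus strand, and CYP82C2, at chr4:15462100-15462349 on the plus strand, were lower in the libraries labelled +BFO and carry W-boxes.

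NIMIN2: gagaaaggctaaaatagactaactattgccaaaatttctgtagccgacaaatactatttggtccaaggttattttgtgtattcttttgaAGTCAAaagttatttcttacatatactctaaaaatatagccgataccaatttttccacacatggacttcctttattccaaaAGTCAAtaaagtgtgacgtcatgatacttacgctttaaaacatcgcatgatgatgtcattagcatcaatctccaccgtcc
ANAC042: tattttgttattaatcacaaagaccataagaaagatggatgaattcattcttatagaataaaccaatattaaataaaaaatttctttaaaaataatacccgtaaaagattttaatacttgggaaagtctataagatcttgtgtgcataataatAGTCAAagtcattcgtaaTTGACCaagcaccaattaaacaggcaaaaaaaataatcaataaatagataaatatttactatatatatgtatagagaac
CYP82C2: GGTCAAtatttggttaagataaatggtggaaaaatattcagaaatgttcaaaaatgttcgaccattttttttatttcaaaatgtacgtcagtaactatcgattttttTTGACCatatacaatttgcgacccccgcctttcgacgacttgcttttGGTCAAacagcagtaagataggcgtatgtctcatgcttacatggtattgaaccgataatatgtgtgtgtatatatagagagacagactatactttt

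JAZ8, at chr1:10596102-10596351 on the plus strand, and ORA59, at chr1:1882657-1882906 on the plus strand, were higher and carry a G-box, which begins 10 bases before the start in JAZ8 and 194 bases before it in ORA59. JAZ8 also holds the W-box TTGACC, on the other strand and left in lower case.

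JAZ8: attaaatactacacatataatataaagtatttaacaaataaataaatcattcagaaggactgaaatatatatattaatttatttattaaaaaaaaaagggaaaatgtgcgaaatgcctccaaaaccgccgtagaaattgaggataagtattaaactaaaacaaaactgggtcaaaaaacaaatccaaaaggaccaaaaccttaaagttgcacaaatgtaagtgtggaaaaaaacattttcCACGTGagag
ORA59: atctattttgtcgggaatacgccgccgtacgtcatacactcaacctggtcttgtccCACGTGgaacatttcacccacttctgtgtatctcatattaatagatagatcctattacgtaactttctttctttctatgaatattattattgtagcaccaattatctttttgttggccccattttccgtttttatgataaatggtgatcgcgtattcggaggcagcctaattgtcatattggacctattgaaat

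PHT1;2, at chr5:17415448-17415697 on the plus strand, was higher and PS2, at chr1:27466349-27466598 on the minus strand, was lower, and both carry a P1BS sequence, 42 and 217 bases before the start. PS2 also holds the W-box TTGACC, left in lower case.

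PHT1;2: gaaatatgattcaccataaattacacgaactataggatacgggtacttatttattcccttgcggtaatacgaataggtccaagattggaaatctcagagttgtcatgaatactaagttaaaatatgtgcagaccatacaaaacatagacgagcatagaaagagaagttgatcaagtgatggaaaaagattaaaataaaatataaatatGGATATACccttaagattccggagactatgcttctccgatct
PS2: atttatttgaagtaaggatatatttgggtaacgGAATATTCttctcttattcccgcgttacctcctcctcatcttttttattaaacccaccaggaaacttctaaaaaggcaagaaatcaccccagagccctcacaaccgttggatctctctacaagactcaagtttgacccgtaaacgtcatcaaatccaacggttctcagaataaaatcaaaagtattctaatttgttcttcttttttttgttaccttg

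The same contrast was measured in MYC2–FLAG roots under LP, in 6 other libraries that share none with NC. There, 3365 genes were called (15.9% of those tested), 1689 higher (8.01%) and 1676 lower (7.94%). Of the calls, 1492 were shared with NC, which is 57.5% of the NC calls and 44.3% of the LP calls, and 1425 of these had the same sign, 624 higher and 801 lower. Another 67 had opposite signs. Of the 17 sulfate genes 2 were called higher and 12 lower under both light levels, of 21 sugar genes 8 higher and 2 lower, of 30 iron genes 2 higher and 10 lower, of 23 salicylic acid genes 1 higher and 10 lower, and of 27 barrier genes 6 lower. No library is shared, but the labels of both light levels come from the same set.

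**Figure D4:**
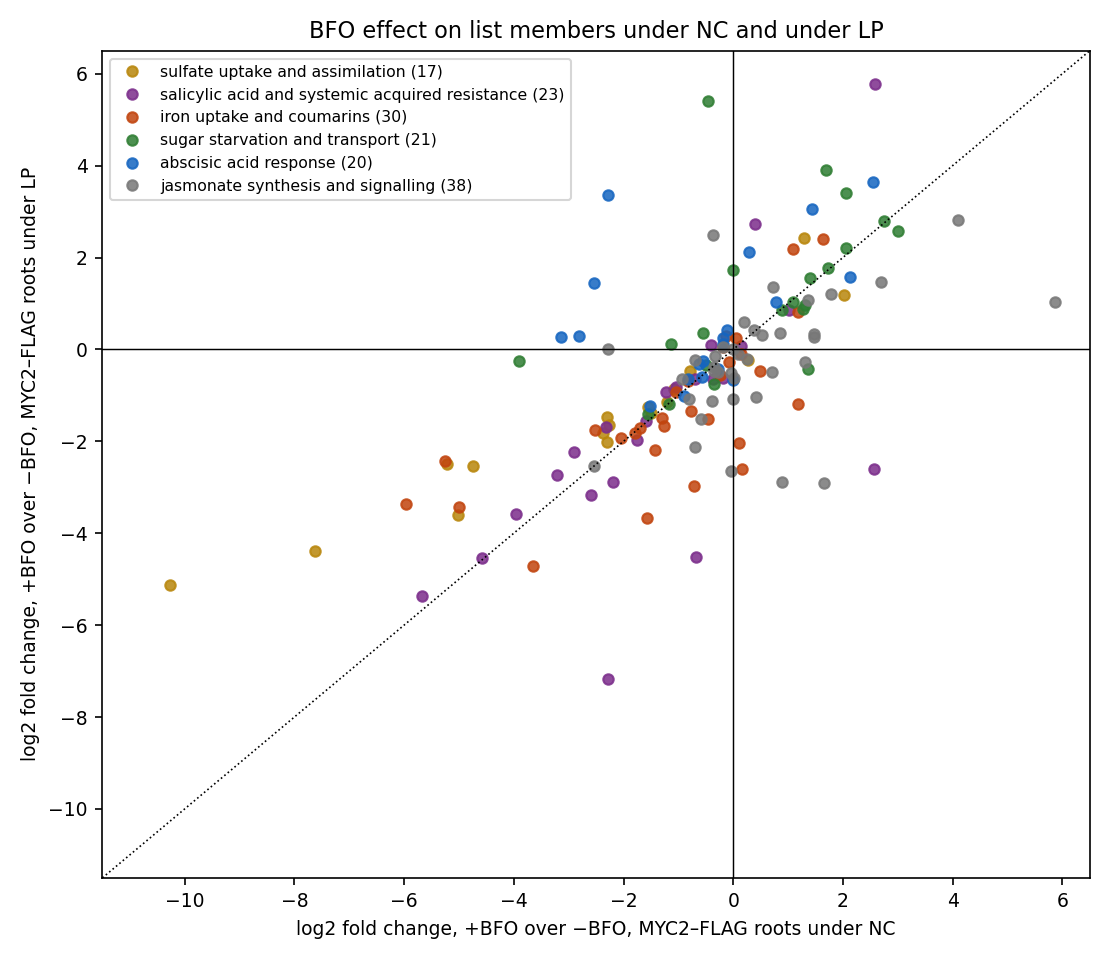
Log2 fold change (+BFO over −BFO, by label) of the members of 6 gene lists in MYC2–FLAG roots under NC (x axis) and under LP (y axis), 1 point per gene, with the dotted line marking equal values. Sulfate, salicylic acid and sugar genes lie mostly near the line or on the same side of 0, and several abscisic acid genes lie below 0 under NC and above it under LP. Points of genes without counts in a group are fitted values that depend on the prior count.

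The difference between the light levels was tested for each gene as the fold change under NC minus that under LP. It was called for 1413 genes (6.7% of those tested), 581 with a positive (2.75%) and 832 with a negative difference (3.94%). RRTF1 was 58.7, 33.2 and 15.6 CPM in the NC libraries labelled +BFO, against 0.185, 1.08 and 0.108 CPM in the NC libraries labelled −BFO. Under LP it was 5.33, 8.91 and 1.46 CPM in the libraries labelled +BFO, against 11.01, 4.41 and 8.25 CPM in those labelled −BFO, and the difference in log2 fold change was 6.68 ± 1.24 (adjusted p = 0.00021). AZI1 had opposite signs. It was 79.5, 90.8 and 112 CPM in the NC libraries labelled +BFO, against 19.005, 17.7 and 10.8 CPM in the NC libraries labelled −BFO. It was 21.3, 21.1 and 14.1 CPM in the LP libraries labelled +BFO, against 84.01, 110.0 and 148 CPM in those labelled −BFO (difference 5.17 ± 0.53, adjusted p = 2.18e-08). AT4G19750, a glycosyl hydrolase with a chitinase insertion, was 6.97, 1.15 and 1.58 CPM in the NC libraries labelled +BFO, against 0.185, 0.791 and 0.648 CPM in the NC libraries labelled −BFO. It had no count in the LP libraries labelled +BFO, against 34.5, 30.5 and 28.7 CPM in those labelled −BFO.

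Smaller differences touched several lists. Of 30 iron genes 6 had a positive and 1 a negative difference, with FRO2 at 2.38 ± 0.34 (adjusted p = 6.02e-06). Of 20 abscisic acid genes 3 had a negative difference, among them HAI1 at −3.097 ± 0.61 (adjusted p = 0.000495) and HAI2 at −3.41 ± 1.14 (adjusted p = 0.0349). HAI2 was 0.444, 0.234 and 0.183 CPM in the LP libraries labelled +BFO, against 0.341, 0.282 and 0.0927 CPM in those labelled −BFO. DIN2 (−3.66 ± 0.99), PAP17 (−1.92 ± 0.54), NIA1 (1.79 ± 0.41) and CML38 (3.11 ± 0.75) also differed by the call rule. Of the green tissue markers, 13 of 17 were called lower in the libraries labelled +BFO under LP, their median log2 fold change was −1.53, and 7 had a positive difference between NC and LP. The part of these in the light results was not tested.

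Light level itself was also compared within each label. LP against NC gave 248 calls (1.18% of genes tested) in the libraries labelled +BFO, 153 higher (0.725%) and 95 lower (0.45%) under LP. In the libraries labelled −BFO it gave 947 calls (4.49%), 422 higher (2%) and 525 lower (2.49%) under LP. These counts were not compared by a test of their own, and the test of each gene's difference is the light interaction above.

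Shoots of the same line under NC gave 1303 calls (6.18% of genes tested), 674 higher (3.19%) and 629 lower (2.98%) in the libraries labelled +BFO. Of these, 312 were shared with the roots, 12.03% of the root calls and 23.9% of the shoot calls, 140 with the same sign and 172 with opposite signs. The root fold change minus the shoot fold change was called for 2648 genes (12.6%), 1189 positive (5.64%) and 1459 negative (6.92%). Several lists that were lower in roots were higher in shoots by label. In shoots, 10 of 23 salicylic acid genes, 6 of 26 defence factors and 11 of 26 auxin response genes were called, and all of these were higher. Of 38 jasmonate genes 1 was called higher and 10 lower in shoots. Of 17 sulfate genes 4 were called in shoots, all lower. Root and shoot libraries come from plants of the same labels, and whether the root labels and the shoot labels are both right was not tested.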

How the data were processed

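Counts per gene of 48 libraries (16 conditions of 3) were deposited by the authors as raw, unnormalized counts. Per the labels and the study's methods, FastQC was run, reads were mapped to TAIR10 with TopHat2 and reads on exons were counted by strand with HTSeq. The counting left out reads with more than 1 alignment, so genes with close copies may be undercounted. Of the lines of a table, 32678 were genes and 5 were summary lines, which were left out. In the 6 libraries described here, the gene counts were 7302606 to 11045467.

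edgeR 4.0.16 in R 4.3.3 was used. Genes whose counts summed to more than 100 over the libraries were kept, libraries were scaled by TMM, and a quasi-likelihood fit (glmQLFit, glmQLFTest) had 1 mean per condition over all 48 libraries. A gene was called where its log2 fold change was 1 or more in size with an adjusted p (Benjamini-Hochberg, over all genes tested) under 0.05. CPM are counts divided by the scaled library size. Standard errors were taken as the size of the log2 fold change over the root of F and are approximate. For a group without counts, 3 counts summed over its libraries served as the upper limit, for counting error only. List medians were the same with such genes set at their bound. Interactions were tested in the same fit.

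Gene lists, members and comparisons were chosen with earlier results of these data known. Named genes were MYC2, the 10 largest rises and the 10 largest falls among called genes with a mean count of 50 or more and groups that did not overlap, up to 4 called members per list without overlap, immune genes named for wild-type plants, and for light the 3 largest differences each way among called genes with a mean count of 50 or more over the 12 MYC2–FLAG root libraries. Other called members are given by their list, and FRO2 and AZI1 under LP were picked out after their values were seen. Families were taken by product name. Names, products and promoters came from RefSeq (TAIR10.1), which matched 31912 identifiers. Promoter coordinates are of that assembly, while the counts were made on TAIR10.

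In simulated counts for the main comparison over 21098 genes, 21, 49, 50 and 50 of 50 genes given a log2 change of 1, 1.5, 2 and 3 were called in the right direction, and 3 unchanged genes were called. The simulation gave every gene the same dispersion and changed only genes above a limit of expected counts. Its rates therefore need not hold for genes with few counts or a wider spread. Libraries with the same replicate number did not deviate together. Alternatives were DESeq2 size factors, DESeq2 1.42.0, limma-voom (limma 3.58.1), glmTreat against a 2-fold change, no filter, filterByExpr, organellar genes left out, fits of fewer libraries, the legacy fit, the replicate number as a block and each library left out.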

Additional observations from a re-analysis of the deposited data

Results flagged for a closer look

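Genes were singled out because the difference between labelled +BFO and −BFO libraries was itself found to differ between conditions by an interaction term of the edgeR fit. Between light levels (NC minus LP) this held for 1413 genes, of which 29 were among the genes named. Among these calls with a mean count of 50 or more over the 12 MYC2–FLAG root libraries, the largest positive differences in log2 fold change were 13.46 for AT4G19750, 7.81 for ECS1, a cell wall protein linked to Xanthomonas, and 6.68 for RRTF1. Under the same count limit the largest negative ones were −5.16 for AT2G44220, −5.09 for AT2G41810 and −3.87 for AT4G10830. AT4G19750 had no count in the LP libraries labelled +BFO, ECS1 had 1 library with counts there, and AT2G44220, AT2G41810 and AT4G10830 were at or near 0 in the LP libraries labelled −BFO, so these fitted differences depend on the prior count and are no bounds. They also moved with single libraries. ECS1 stood at 10.29 without the third LP library labelled +BFO, AT4G19750 at 12.27 without the first NC library labelled +BFO and AT4G10830 at −4.74 without the second LP library labelled −BFO. Without the third NC library labelled −BFO, AT2G44220 stood at −4.45 and AT2G41810 at −4.44, and without the third LP library labelled −BFO, AT2G44220 stood at −8.06. The call of AT2G41810 was lost under limma-voom, in the smaller fits and when either of 2 NC or 2 LP libraries labelled −BFO was left out (adjusted p = 0.058 to 0.240 over these and glmTreat). ECS1 was 3.9, 1.95 and 2.19 CPM in the NC libraries labelled +BFO, against 6.18, 10.14 and 4.32 CPM in the NC libraries labelled −BFO, and 0, 0 and 0.183 CPM in the LP libraries labelled +BFO, against 49.8, 72.9 and 30.7 CPM in those labelled −BFO. AT2G44220 was 5.64, 8.68 and 14.5 CPM in the NC libraries labelled +BFO, against 1.11, 3.24 and 7.24 CPM in the NC libraries labelled −BFO, where the libraries overlapped, and 6.99, 14.1 and 10.8 CPM in the LP libraries labelled +BFO, against 0, 0 and 0.278 CPM in those labelled −BFO.

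Between organs (roots minus shoots under NC) the difference was called for 2648 genes, 68 of them named. Between genotypes (MYC2–FLAG minus myc2-3 roots under NC) it was called for 5327 genes, 96 of them named. The last count goes with the opposed labels of the genotypes, and with sequencing project, and these cannot be told apart from the genotype. The part of the latent virus reads reported for some myc2-3 samples was not tested.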

How the results depend on the processing

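Under all alternatives but glmTreat, the number of genes called higher in the libraries labelled +BFO ran from 781 to 1085 and the number called lower from 1302 to 1574. Testing against a 2-fold change (glmTreat) called 344 higher and 622 lower, since it asks for more than the same fold. It also called 75 positive and 109 negative differences between light levels, 289 and 468 between organs, and 1183 and 1645 between genotypes. Leaving out each library gave 926 to 1060 higher and 1424 to 1574 lower genes, 451 to 697 and 629 to 1000 differences by light, 1034 to 1261 and 1198 to 1732 by organ, and 2297 to 2461 and 2725 to 3014 by genotype.

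Same-numbered libraries of the 2 labels had correlations of their deviations of −0.07, −0.01 and −0.02, so no shared deviation was seen. With 3 libraries per label this cannot settle whether the libraries were paired, which the labels do not state. The replicate block in the fit of the 6 libraries gave 791 higher and 1302 lower calls, against 781 and 1310 without the block.

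Of 91 called named genes, 72 kept their call and direction in every alternative run. Among the named genes, signs turned only for those that were not called. Over all called genes, 1 had the opposite sign under limma-voom and 1 without the second library labelled +BFO. MYC2 stood at 0.05, 0.12 and 0.14 without the first −BFO, the second −BFO and the third +BFO library, in a range of −0.27 to 0.14 over the libraries left out. MYB15 stood at 0.021 under limma-voom and ran from −0.73 to 0.50 over the libraries left out, MYB51 from −0.16 to 0.57, CRK9 from −0.058 to 0.45, ERF6 from −0.38 to 0.79 and ERF11 from −0.18 to 0.51. WAKL10 was called lower in 6 alternatives and FRK1 in 4, mostly fits of fewer libraries. The cause was not tested. Genes with few counts limit the precision.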

Other observations

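Gene families of the cell wall moved both ways. Of 24 expansin genes by product name, which loosen the wall, 6 were called lower and 4 higher in the libraries labelled +BFO. EXPA10 was 0, 0.177 and 0.263 CPM in the libraries labelled +BFO, against 1.94, 2.3 and 1.51 CPM in those labelled −BFO (log2 fold change −3.54, SE 0.57, adjusted p = 2.45e-06). Of 59 class III peroxidase genes by product name 8 were called lower and 5 higher. The product name also takes in the dioxygenase DOX1, which is among these lower calls. Among neighbours with similar sequence PRXCA stood at 3.45 ± 0.87 and PRXCB at −1.97 ± 0.29. Of 44 extensin genes by product name 5 were called higher and 1 lower, a share of 13.6% that is near the 12.3% over all genes tested. These genes were chosen after their values were seen.

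Among the glutathione S-transferases the largest falls were those of GSTU10 (−3.12 ± 0.34), GSTU4 (−2.895 ± 0.57), GSTU22 (−2.702 ± 0.16) and GSTU24 (−2.65 ± 0.30). GSTU10 was 13.7, 13.5 and 11.6 CPM in the libraries labelled +BFO, against 111, 104 and 123 CPM in those labelled −BFO. The UDP-glycosyltransferase with the largest fall was UGT73C7, at 1.74, 2.92 and 2.19 CPM in the libraries labelled +BFO, against 28.05, 23.02 and 21.1 CPM in those labelled −BFO (log2 fold change −3.38, SE 0.26, adjusted p = 4e-13). Every library labelled +BFO lay below every library labelled −BFO for both genes.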
